A study of Mus musculus with 64 samples.

Results

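Prostaglandin synthesis in the heart is described here through 7 genes, Ptgs1, Ptgs2, Ptges, Ptgis, Ptgds, Hpgd and Ptger4, which were taken by gene symbol from a table of 20637 genes and were all present. The table holds RNA-seq values of 64 libraries from CD1 mice, an outbred stock with no engineered allele named in the labels. Mice had a myocardial infarction (MI) or a sham operation either as adults at postnatal day 56 (P56) or as newborns at postnatal day 1 (P1), and hearts were collected 3 days later. Cardiomyocytes, fibroblasts, leukocytes and endothelial cells were taken from the hearts of each of the 4 conditions, P56 MI, P56 sham, P1 MI and P1 sham, which gave 16 groups of 4 libraries.

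At P56 the mice were male, the infarct was a permanent ligation of the left descending coronary artery, and hearts were digested by enzyme perfusion. At P1 the ventricles were pooled in groups of 6 and digested with stirring, and the sex of the pups is not given. Age, sex, pooling and digestion therefore cannot be told apart in any difference between P56 and P1. Cardiomyocytes were the dense layer of a Percoll gradient and were not sorted. The other 3 populations were sorted with antibodies to CD90, CD45, CD31 and podoplanin. The labels do not say whether the 4 libraries of a group came from separate pools at P1, or from separate animals or pools at P56. The p-values below rest on the spread among those libraries alone, part of which may be technical. In such bulk libraries, fewer cells of a type and less RNA per cell cannot be told apart.

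Prostaglandins are short-lived lipid signals made from arachidonic acid, which cytosolic phospholipase A2 (Pla2g4a) frees from membranes. The cyclooxygenases Ptgs1 (COX-1, made steadily in many tissues) and Ptgs2 (COX-2, an early-response gene induced by injury and inflammation) turn it into prostaglandin H2. Terminal synthases then set the product: Ptges makes prostaglandin E2, Ptgis makes prostacyclin, a vasodilator that inhibits platelets, and Ptgds makes prostaglandin D2. Hpgd encodes 15-hydroxyprostaglandin dehydrogenase, which starts the inactivation of prostaglandin E2 and related products. Ptger4 encodes EP4, a receptor for prostaglandin E2 that raises cyclic AMP.

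The genes lie on 4 chromosomes of GRCm38, as listed in the deposited table, and all are protein-coding. Ptgs2 (ENSMUSG00000032487) is at chr1:150100031-150108227 on the plus strand. Ptgs1 (ENSMUSG00000047250) is at chr2:36230426-36252272, plus strand, Ptges (ENSMUSG00000050737) at chr2:30889471-30929863, minus strand, Ptgis (ENSMUSG00000017969) at chr2:167191805-167240604, minus strand, and Ptgds (ENSMUSG00000015090) at chr2:25466709-25470046, minus strand. Hpgd (ENSMUSG00000031613) is at chr8:56294552-56321046, plus strand, and Ptger4 (ENSMUSG00000039942) at chr15:5206661-5244187, minus strand. In the GENCODE M21 annotation, exons of Ptger4 share 328 bases with Ttc33 and 1015 bases with Gm15937 on the opposite strand, exons of Ptgis share 468 bases with 1110018N20Rik, and exons of Ptgs1 share 148 bases with Gm43621. Whether the authors counted by strand is not stated in the labels, so reads in those stretches cannot be assigned to 1 of the partners.

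RefSeq promoters on GRCm38.p6 were found for 6 of the 7 genes, and 3 are shown. They are of the gene with the steepest change after infarction (Ptgs2) and the gene with the widest span of levels (Ptgds). The third is of the gene called in opposite directions with age in sham fibroblasts and leukocytes (Ptges). Each run holds 250 bases before the annotated start and the first 30 bases from it, read 5′ to 3′ on the gene's strand, with motif matches in capitals. The Ptgs2 window is chr1:150099781-150100060 on the plus strand, the Ptgds window chr2:25469720-25469999 on the minus strand, and the Ptges window chr2:30903268-30903547 on the minus strand. The Ptgds and Ptges windows lie inside the gene spans listed above. The RefSeq starts used for these genes thus differ from the listed gene ends.
Ptgs2: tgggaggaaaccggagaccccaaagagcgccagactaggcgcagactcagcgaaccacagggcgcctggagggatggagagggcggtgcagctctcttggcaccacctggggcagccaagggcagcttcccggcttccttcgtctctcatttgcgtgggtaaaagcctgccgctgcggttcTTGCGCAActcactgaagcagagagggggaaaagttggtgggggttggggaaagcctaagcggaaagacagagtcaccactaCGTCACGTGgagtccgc
Ptgds: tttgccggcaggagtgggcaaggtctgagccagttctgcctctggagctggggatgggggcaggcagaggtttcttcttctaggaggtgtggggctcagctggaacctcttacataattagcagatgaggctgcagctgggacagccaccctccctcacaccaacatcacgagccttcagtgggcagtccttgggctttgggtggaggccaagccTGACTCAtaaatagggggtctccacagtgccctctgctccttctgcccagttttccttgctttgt
Ptges: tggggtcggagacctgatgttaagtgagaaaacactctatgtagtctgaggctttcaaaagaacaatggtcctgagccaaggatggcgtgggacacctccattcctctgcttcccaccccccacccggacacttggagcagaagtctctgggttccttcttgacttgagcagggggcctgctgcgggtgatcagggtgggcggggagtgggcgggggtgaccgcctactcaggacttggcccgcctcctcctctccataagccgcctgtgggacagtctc

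Windows of 300 bases, 250 before the start and 50 from it, were searched on both strands for 7 motifs. Those were a TATA box (TATAAA), an E-box (CACGTG), the core of a cyclic AMP response element (TGACG), an AP-1 site (TGANTCA), a C/EBP site (TTGCNNAA), an NF-kB site (GGGA and CC, 4 bases apart) and a MEF2 site (CTA and TAG, 4 bases apart). In Ptgs2 the C/EBP motif matched from 69 to 62 bases before the start, and it is held by 10.8% of 32851 promoters. The Ptgs2 window also held that core on the minus strand, which reads CGTCA on the strand shown, 13 to 17 bases after the start (20.8% of promoters), overlapping an E-box 16 to 21 bases after it (7.15%). In Ptgds the AP-1 motif matched from 35 to 29 bases before the start (7.81%), and in Hpgd the TATA box letters matched 4 to 9 bases after it (13.6%). None of the 7 motifs was found in the windows of Ptges, Ptgs1 and Ptger4. A match describes the letters only.

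The libraries held 9587688 to 27542141 reads assigned to genes (median 20592608), recovered from the steps of the deposited CPM values, which are reads scaled by library size. A single read was worth 0.0340 to 0.136 CPM, and 3 reads, the limit that a count of 0 allows, 0.102 to 0.409 CPM. Such limits cover counting error only. In each condition the fibroblast, endothelial and leukocyte marker sums were highest in their own population, but markers of other cells were carried along. The summed level of 12 cardiomyocyte markers in P56 leukocytes was 5151 to 18824 CPM after MI but 74717 to 205385 CPM after sham, while P56 sham cardiomyocytes held 180135 to 211465 CPM. Sham replicate 1 of the P56 leukocytes had the highest sum. P1 leukocytes held 5502 to 15208 CPM of the cardiomyocyte markers after MI and 18311 to 24058 CPM after sham, where P1 sham cardiomyocytes held 43540 to 70037 CPM. The 10 endothelial markers summed to 462 to 884 CPM in P1 MI leukocytes and 3738 to 4420 CPM in P1 sham leukocytes, beside 3656 to 4440 CPM and 1328 to 1941 CPM of the 7 leukocyte markers. In P56 sham endothelial cells the cardiomyocyte markers, at 9104 to 20780 CPM, were of the order of the endothelial ones, at 10782 to 12583 CPM. No leukocyte marker was at 0 in the leukocyte groups. Ribosomal 18S RNA took over 5% of reads in 7 libraries, up to 26.1%. Scaling by library totals in place of the authors' factors moved the median of all genes by -1.05 on the log2 scale in the age contrast of cardiomyocytes and by 0.24 in the MI contrast of P56 leukocytes. No call of the 7 genes changed direction under either scaling tried.

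Tests were made with limma on log2(CPM + 0.5) over the whole table in each population, with Benjamini-Hochberg adjustment over all genes and calls at an adjusted p under 0.05. Fold changes are on that scale, on which low genes change less than their CPM do. After MI at P56, 7 of the 7 genes were called in leukocytes (5 rose and 2 fell, where 59.5% of all tested genes were called). In P56 fibroblasts 4 rose and 1 fell (50% of all genes called), in cardiomyocytes 3 rose (9.69% called, 8.66% called higher), and in endothelial cells 2 rose and 1 fell (20.4%). The gene that fell in fibroblasts was Ptgds. It passed the filter of 1 CPM in at least 4 libraries there only through the P56 sham group. Its other fibroblast calls, with age and in the difference of MI changes, rest on the same group. The median log2 fold change of the 7 genes after MI at P56 was 0.79 in leukocytes, 0.45 in fibroblasts, 0.52 in cardiomyocytes and 0.21 in endothelial cells, beside 0.02, -0.03, 0.08 and 0.02 over all genes in the same populations.

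After MI at P1, 2 genes rose and 1 fell in leukocytes (45.2% of all genes called), and 1 rose in fibroblasts (2.37% called, 1.99% called higher) and 1 in cardiomyocytes (0.343% called, 0.285% called higher). In P1 endothelial cells limma called none of the 7 (0.216% of all genes called), with 3 of the 7 and 2222 of 15706 genes at an unadjusted p under 0.05. edgeR on the recovered reads also called none of the 7 there. The MI change at P56 minus that at P1 passed the test for 5 genes in leukocytes (45.2% of all genes called), 3 in fibroblasts (31.7%) and none in cardiomyocytes (1.75%) or endothelial cells (5.41%). In those 2 populations 2569 of 15461 and 3133 of 15706 genes had an unadjusted p under 0.05, and edgeR called none of the 7 either. Between P56 sham and P1 sham, 1 gene was higher and 6 lower at P56 in cardiomyocytes (70.4% of all genes called), 2 were higher and 2 lower in fibroblasts (67%), 2 higher and 4 lower in leukocytes (67.1%), and 5 higher in endothelial cells (62.9% called, 33.6% called higher). The age contrasts and the MI contrast of P56 leukocytes called most genes of the table, so a call there does not set the 7 genes apart.

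**Figure D1:**
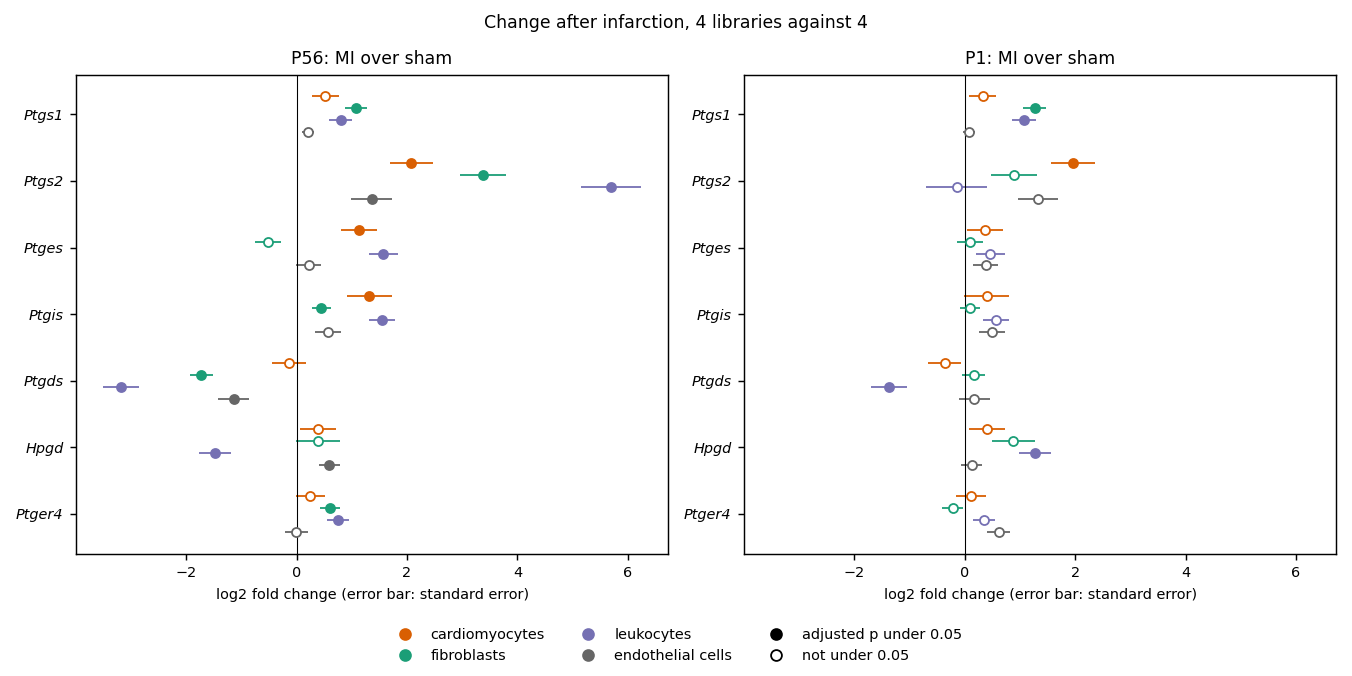
Log2 fold change of the 7 prostaglandin genes after infarction (MI over sham) at P56 (left) and P1 (right) in the 4 populations. Error bars are standard errors of the limma fit with 4 libraries against 4, and filled points have an adjusted p under 0.05. Ptgs2 in P56 leukocytes is the point farthest right at 5.69, and Ptgds in the same cells the farthest left at -3.18.

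Each gene had a population where it was highest. In the fit of all 64 libraries, a population stood above each of the other 3 for 7 of the 7 genes at P56 MI (64.9% of 18344 genes tested), 7 at P56 sham (62.1%), 6 at P1 MI (52.7%) and 5 at P1 sham (50.2%). Ptgis and Ptger4 were highest in fibroblasts, Ptgds in cardiomyocytes and Hpgd in leukocytes in all 4 conditions. Ptgs2 was highest in fibroblasts in both P56 conditions and in leukocytes in both P1 conditions. Ptges was highest in fibroblasts in both P56 conditions, and no population stood above the others in it at P1. Ptgs1 was highest in endothelial cells at P56 and in leukocytes at P1 MI.

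Several of these calls did not hold under every setting. For Ptgs2 at P56 MI, fibroblasts were above leukocytes by 1.39 ± 0.48 (SE) on the log2 scale (adjusted p = 0.00993, limma), by 0.70 (adjusted p = 0.19) without replicate 2 of the P56 MI leukocytes, and by 0.91 (adjusted p = 0.0766) with edgeR. Those fits leave out that libraries of 1 condition and number deviated together across populations at P56. Fibroblasts exceeded leukocytes in 4 of 4 same-numbered libraries, and with a replicate block within the condition, chosen after seeing the data, the difference was 1.39 ± 0.31 (SE; limma adjusted p = 0.00012). With that block it passed in 70 of 70 further settings, including edgeR (1.29, adjusted p = 0.00015) and each library left out (at least 1.06, adjusted p up to 0.00449). Most of those settings left out 1 library of another condition, which cannot move this difference. For Ptgs2 at P1 MI, leukocytes were above fibroblasts by 1.10 (limma adjusted p = 0.0408), and the groups did not overlap. That call was lost with a pseudocount of 0.1 (adjusted p = 0.0565), with edgeR (adjusted p = 0.0504), and without replicate 1, 2 or 4 of the P1 MI leukocytes or replicate 3 or 4 of the P1 MI fibroblasts (adjusted p = 0.0559 to 0.207). For Ptger4 the call was lost under library total scaling at P56 MI, P56 sham and P1 MI (adjusted p = 0.0745, 0.139 and 0.101). At P56 MI it was also lost without the 18S-rich libraries (adjusted p = 0.0573) or without fibroblast replicate 1 or 3 (0.0517 and 0.0554), and at P56 sham without fibroblast or endothelial replicate 2 (0.122 and 0.156). With the block within the condition the Ptger4 call at P56 MI was lost under library total scaling (adjusted p = 0.0757), without the 18S-rich libraries (0.0712) and without replicate 1 or 4 of the fibroblasts or 1 or 3 of the leukocytes (0.0531 to 0.117), and at P56 sham under that scaling (0.138) and without leukocyte replicate 1, fibroblast replicate 2 or endothelial replicate 2 (0.0784 to 0.265). For Ptgs1 at P1 MI it was lost under library total scaling (adjusted p = 0.107) and without leukocyte replicate 4 (0.0806), and at P1 sham endothelial cells came out highest under library total scaling (adjusted p = 0.03) and without leukocyte replicate 2 (0.028). With the block within the condition the Ptgs1 call at P1 MI was lost under library total scaling (limma adjusted p = 0.0875). It was also lost then without leukocyte replicate 3 (0.0589) or endothelial replicate 4 (0.0544). At P1 sham with that block, endothelial cells came out highest under library total scaling (0.0217) and without leukocyte replicate 2 (0.011). They also did without cardiomyocyte replicate 2 or 4 or P56 MI fibroblast replicate 3 or 4 (0.0411 to 0.0491).

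**Figure D2:**
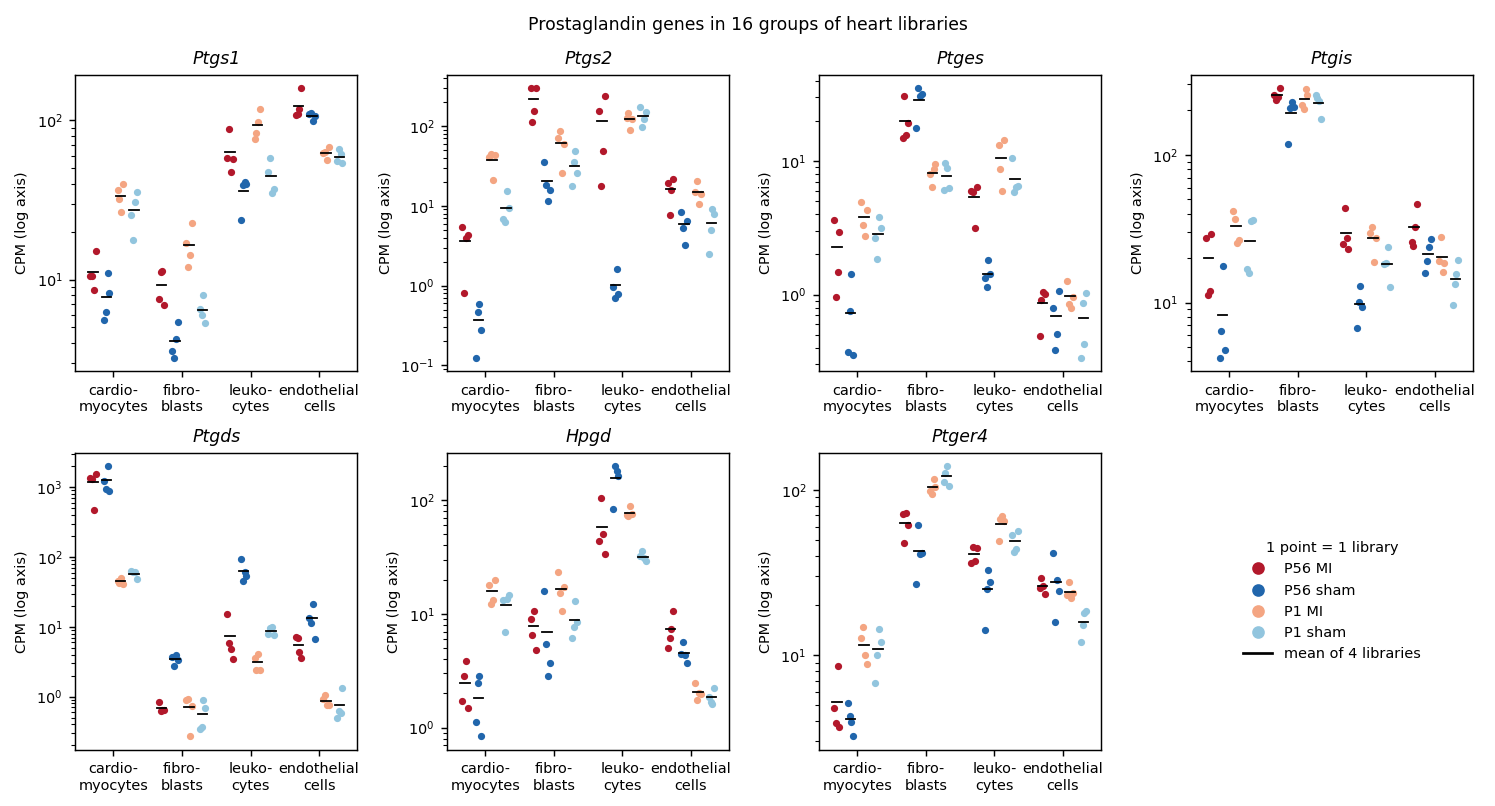
CPM (log axis) of each of the 7 genes in every library, by population and condition, with 1 point per library and a bar at the mean of 4. Ptgds fills the widest span, from 0.569 CPM in P1 sham fibroblasts to 1259 CPM in P56 sham cardiomyocytes, and Ptgs2 in P56 leukocytes shows separate MI and sham clouds.

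Group means spanned 589-fold for Ptgs2 and 2214-fold for Ptgds between the highest and the lowest of the 16 groups, but 30.2-fold for Ptgs1, 30.8-fold for Ptgis and 29.3-fold for Ptger4. The span was 43.4-fold for Ptges and 86.0-fold for Hpgd. With the 16 groups in order of their means, the values of neighbouring groups overlapped in 15 of 15 pairs for Ptgs1, so its order was a gradient without a step. Hpgd and Ptgis each had 1 step, below the 4 leukocyte groups and below the 4 fibroblast groups. Ptges had 1 step, below the 2 P56 fibroblast groups, and Ptgs2 had 1, between P56 sham leukocytes and the lowest group, P56 sham cardiomyocytes. Ptger4 had 2 steps, the first below the 2 P1 fibroblast groups, and Ptgds had 3, the first below the 2 P56 cardiomyocyte groups.

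Ptgs2 had the steepest change after infarction. In P56 leukocytes it measured 155, 17.7, 48.8 and 242 CPM after MI, against 0.951, 0.708, 1.59 and 0.776 CPM after sham, from 410 to 6140 reads per MI library and 17 to 36 reads per sham library. The groups did not overlap, and the MI libraries spread widely among themselves, with replicate 2 the lowest. The fold change was 51.8 (log2 5.69 ± 0.55 SE, limma adjusted p = 7.48e-07), and it stayed between 5.14 and 6.38 on the log2 scale when any of the 16 libraries was left out. In P1 leukocytes Ptgs2 measured 127, 146, 88.5 and 123 CPM after MI and 171, 96.9, 122 and 152 CPM after sham. Those groups overlapped, and the difference of -0.15 ± 0.55 (SE) on the log2 scale did not pass the test (adjusted p = 0.842, 95% confidence interval -1.31 to 1.01). The MI change in leukocytes was larger at P56 than at P1 by 5.85 ± 0.78 (SE) on the log2 scale (limma adjusted p = 3.47e-05).

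Ptgs2 was nearly silent in the sham leukocytes of P56 but not in those of P1. It averaged 1.01 ± 0.405 CPM at P56 and 136 ± 32.7 CPM at P1 in sham leukocytes (SD, n = 4 each), a ratio of 90.5 of P1 over P56 (log2 -6.50 ± 0.55 SE for P56 over P1, limma adjusted p = 4.68e-08). After MI at P56 the mean was 116 ± 102 CPM (SD, n = 4). Those libraries, at 155, 17.7, 48.8 and 242 CPM, spread both below and above the P1 leukocyte libraries, which ran from 88.5 to 171 CPM. Neutrophil markers, 9 genes led by S100a9 and S100a8, summed to 83.8 to 452 CPM in P56 MI leukocytes against 7.55 to 54.6 CPM in P56 sham leukocytes, and to 1983 to 2909 CPM at P1 MI and 1530 to 3070 CPM at P1 sham. Immediate early genes, 16 genes led by Fos and Junb that digestion as well as injury can induce, summed to 1914 to 4874 CPM in P56 MI leukocytes, 958 to 2024 CPM at P56 sham, 4706 to 6588 CPM at P1 MI and 6483 to 8522 CPM at P1 sham. Of those 16, 10 rose and none fell after MI in P56 leukocytes, and 16 were lower at P56 sham than at P1 sham. The part of neutrophils, of immediate early induction and of the cardiomyocyte RNA in the P56 sham leukocytes in the Ptgs2 results was not tested.

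In P56 fibroblasts Ptgs2 measured 299.9, 114, 155 and 298.5 CPM after MI, against 35.9, 18.1, 11.6 and 16.02 CPM after sham, with 22089 and 1547 reads in the groups. Every MI library lay above every sham library. The fold change was 10.4 (log2 3.38 ± 0.42 SE, limma adjusted p = 7.25e-06), and it ran from 3.16 to 3.69 on the log2 scale with libraries left out. In P1 fibroblasts the values were 69.9, 87.5, 25.6 and 59.2 CPM after MI and 17.5, 35.2, 48.2 and 26.0 CPM after sham, and the log2 difference of 0.89 ± 0.42 (SE) did not pass (limma adjusted p = 0.336, 95% confidence interval 0.01 to 1.76). The MI change was larger at P56 by 2.50 ± 0.59 (SE) on the log2 scale (limma adjusted p = 0.00474). Leukocyte markers, 7 genes, summed to 9.51 to 23.0 CPM in P56 MI fibroblasts and 4.96 to 12.0 CPM in P56 sham fibroblasts, against 3737 to 4809 CPM in P56 MI leukocytes. Of the 16 immediate early genes, 12 rose in fibroblasts after MI at P56 and none changed at P1, and their part in the result was not tested.

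Ptgs2 also rose in cardiomyocytes, from a lower level. At P56 it measured 5.36, 0.806, 4.01 and 4.25 CPM after MI and 0.124, 0.472, 0.596 and 0.280 CPM after sham, the sham group resting on 15 reads. The groups did not overlap, and the fold change was 4.22 (log2 2.08 ± 0.39 SE, limma adjusted p = 0.00179). At P1 it measured 41.0, 45.3, 21.3 and 43.5 CPM after MI and 6.89, 6.34, 15.5 and 9.34 CPM after sham, again apart, with a fold change of 3.90 (log2 1.96 ± 0.39 SE, adjusted p = 0.0385). The 2 MI changes differed by 0.11 ± 0.56 (SE) on the log2 scale, which did not pass the test (adjusted p = 0.939, 95% confidence interval -1.05 to 1.28, the sign changing with a pseudocount of 1 and under library total scaling). Leukocyte markers in these unsorted cells summed to 80.8 to 292 CPM after MI and 14.3 to 61.7 CPM after sham at P56, and to 166 to 317 CPM and 84.3 to 192 CPM at P1. At P56 MI Ptgs2 was at 3.12% of the leukocyte mean, within the range of the leukocyte markers (1.77% to 6.22%, median 5.09%). At P56 sham, where leukocytes held little Ptgs2, it was at 36.5% (markers 0.612% to 2.75%). At P1 it was at 31.2% after MI (markers 3.02% to 8.93%) and 7.01% after sham (5.43% to 11.4%). At P56 Ptgs2 was highest in fibroblasts, averaging 217 CPM after MI and 20.4 CPM after sham. Cardiomyocytes averaged 3.61 and 0.368 CPM. Fibroblast markers in those cardiomyocytes were at a median of 3.15% of the fibroblast mean after MI (range 1.33% to 7.21%). After sham the median was 1.80% (1.09% to 4.96%). The part of leukocyte and fibroblast RNA in the result was not tested. The P1 call was lost with a pseudocount of 0.1 (adjusted p = 0.117), a filter of 5 CPM (0.059), the replicate block (0.0629), without the 18S-rich libraries (0.0625), and without replicate 1, 2 or 4 of P1 MI or P1 sham or replicate 2 or 4 of P56 sham (0.0504 to 0.192).

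In endothelial cells Ptgs2 was lower than in fibroblasts in all 4 conditions. It measured 19.1, 7.58, 15.97 and 21.9 CPM after MI at P56 and 8.37, 5.31, 3.27 and 6.50 CPM after sham, with overlap. The fold change of 2.56 (log2 1.36 ± 0.36 SE) passed the test (limma adjusted p = 0.0149), but not without sham replicate 3 (adjusted p = 0.055) or MI replicate 4 (0.0516). Leukocyte markers in those endothelial libraries summed to 52.7 to 136 CPM after MI and 15.4 to 24.7 CPM after sham (6 of 7 rose), and macrophage markers to 133 to 342 CPM and 57.6 to 73.8 CPM (5 of 9 rose). Of 7 epicardial markers 4 rose, and of 16 immediate early genes 9 rose and 1 fell. Ptgs2 in P56 MI endothelial cells was at 13.9% of the leukocyte mean, beside a leukocyte marker median of 1.83% (range 1.68% to 2.54%), and after sham it was above the leukocyte mean. The part of the epicardial and immediate early genes in the result was not tested. At P1 the MI libraries, 15.0, 20.7, 10.5 and 14.0 CPM, lay above the sham libraries, 2.50, 4.97, 9.14 and 7.86 CPM, and the log2 difference of 1.33 ± 0.36 (SE) had an adjusted p of 0.127.

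Ptgs1, the other cyclooxygenase, was most abundant in P56 endothelial cells. Endothelial cells carried 109, 109, 118 and 159.5 CPM at P56 MI, 109, 111, 98.9 and 106 CPM at P56 sham, 62.4, 62.9, 56.3 and 67.6 CPM at P1 MI and 55.5, 66.5, 61.4 and 53.6 CPM at P1 sham. In sham endothelial cells the level was 1.79-fold higher at P56 than at P1 (log2 0.84 ± 0.11 SE, limma adjusted p = 3.6e-06), with no overlap. In that contrast 12 of 12 cardiomyocyte, 8 of 9 mural cell and 4 of 10 endothelial markers were higher at P56, and their part in the endothelial age differences was not tested. No change with MI passed the test in endothelial cells, with log2 differences of 0.20 ± 0.11 at P56 (adjusted p = 0.198, 95% confidence interval -0.02 to 0.43) and 0.07 ± 0.11 at P1 (adjusted p = 0.805, -0.15 to 0.30).

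In leukocytes Ptgs1 rose at both ages, to 58.4, 88.3, 47.5 and 57.3 CPM after MI at P56, against 23.7, 39.1, 41.1 and 39.8 CPM after sham. The P56 fold change was 1.73 (log2 0.79 ± 0.22 SE, limma adjusted p = 0.00481). At P1 it measured 76.2, 83.4, 97.1 and 117 CPM after MI and 47.4, 58.0, 35.2 and 36.9 CPM after sham, a fold change of 2.11 (log2 1.08 ± 0.22 SE, adjusted p = 0.000789). The groups were apart at both ages. Leukocyte markers summed to 3737 to 4809 CPM at P56 MI and 1357 to 2527 CPM at P56 sham, and to 3656 to 4440 CPM and 1328 to 1941 CPM at P1, so the markers of the population itself moved the same way, and their part in the result was not tested. The endothelial markers, from the population where Ptgs1 is highest at P56, fell after MI in leukocytes, 9 of 10 at P56 and 10 of 10 at P1.

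Fibroblasts showed the same direction for Ptgs1 from lower levels. After MI it measured 7.56, 11.2, 11.4 and 6.88 CPM at P56, against 3.55, 3.22, 4.20 and 5.40 CPM after sham (fold change 2.11, log2 1.07 ± 0.21 SE, limma adjusted p = 0.000468). At P1 it measured 17.0, 12.0, 14.4 and 22.6 CPM after MI and 6.53, 5.97, 8.02 and 5.31 CPM after sham (fold change 2.40, log2 1.26 ± 0.21 SE, adjusted p = 0.0038). Neither pair of groups overlapped, and the 2 changes differed by -0.19 ± 0.29 on the log2 scale, which did not pass the test (adjusted p = 0.645). In sham fibroblasts Ptgs1 was lower at P56 (log2 -0.61 ± 0.21 SE, adjusted p = 0.0159, groups overlapping), a call lost under library total scaling (0.112) and without P1 sham replicate 3 (0.0577) or P56 sham replicate 2 (0.0531). Markers of other cells moved with the MI rises in fibroblasts. Epicardial markers, 7 genes, summed to 64.4 to 119 CPM after MI and 41.1 to 62.6 CPM after sham at P56 (6 rose), and to 242 to 399 CPM and 140 to 177 CPM at P1 (5 rose). At P1 leukocyte markers summed to 5.19 to 13.3 CPM after MI and 1.84 to 3.68 CPM after sham (2 of 7 rose), and 3 of 10 endothelial markers rose, though their sum was 253 to 331 CPM after MI and 306 to 356 CPM after sham. At P56, 3 of 7 leukocyte markers and 1 of 10 endothelial markers rose, 1 endothelial marker fell, and the 10 fibroblast markers summed to 56254 to 80982 CPM after MI and 29675 to 41053 CPM after sham. The part of these markers in the fibroblast results was not tested.

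Cardiomyocytes held 10.6, 10.6, 8.65 and 15.0 CPM of Ptgs1 at P56 MI, 5.59, 6.23, 11.0 and 8.27 CPM at P56 sham, 36.2, 32.1, 26.7 and 39.8 CPM at P1 MI and 25.5, 17.8, 30.7 and 35.6 CPM at P1 sham. It was lower in P56 than in P1 sham cardiomyocytes by a ratio of 3.38 of P1 over P56 (log2 -1.76 ± 0.24 SE, limma adjusted p = 3.3e-06), without overlap. The summed cardiomyocyte markers were 180135 to 211465 CPM in P56 sham and 43540 to 70037 CPM in P1 sham cardiomyocytes, and the 10 endothelial markers 1054 to 1703 CPM and 2395 to 3805 CPM. The part of these markers in the age contrast of this unsorted population was not tested.

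The balance of the 2 cyclooxygenase transcripts was compared per kilobase of exon, as Ptgs2 over Ptgs1. In P56 fibroblasts the median ratio was 17.2 after MI (range 6.55 to 27.9) and 2.77 after sham (1.78 to 6.50), and in P1 fibroblasts 2.17 (1.15 to 4.68) and 3.47 (1.73 to 3.87). Ptgs2 exceeded Ptgs1 in every fibroblast library. In P56 leukocytes the median ratio was 1.18 after MI (0.129 to 2.72) and 0.0188 after sham (0.0117 to 0.0258), while P1 leukocytes had 0.875 (0.587 to 1.13) and 2.28 (1.07 to 2.65). So Ptgs1 led in every P56 sham leukocyte library, and P56 MI leukocyte libraries lay on both sides of equality. In cardiomyocytes the median ratio was 0.240 after MI and 0.0284 after sham at P56, and 0.717 and 0.201 at P1. Endothelial cells stayed below 1 in every library, with medians of 0.0879 and 0.0351 at P56 and 0.144 and 0.0713 at P1.

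**Figure D3:**
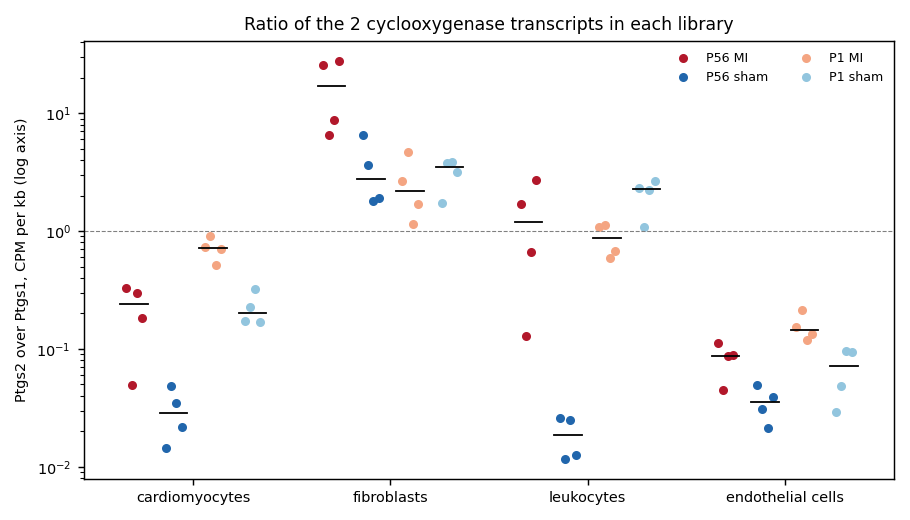
Ratio of Ptgs2 to Ptgs1 in CPM per kb (log axis) in each library, by population, with a bar at the median of 4 and a dashed line at equal levels. Fibroblast libraries all lie above the line and endothelial libraries below it, and P56 leukocytes span from 0.0117 after sham to 2.72 after MI.

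For Ptges, the inducible prostaglandin E2 synthase, no MI change passed the test in fibroblasts in the main fit, with all libraries and no replicate block. In P56 fibroblasts it measured 14.8, 30.4, 15.7 and 19.1 CPM after MI and 17.8, 35.2, 30.7 and 31.6 CPM after sham, with overlap. The log2 difference of -0.53 ± 0.23 (SE) did not pass the test (limma adjusted p = 0.0712), though it did with the replicate block (0.0458), without sham replicate 1 (-0.74, 0.0122) and without MI replicate 2 (-0.74, 0.00855). In P1 fibroblasts it measured 7.96, 6.44, 8.67 and 9.53 CPM after MI and 6.02, 9.74, 8.88 and 6.27 CPM after sham, and the log2 difference of 0.09 ± 0.23 did not pass (adjusted p = 0.931). The MI changes at the 2 ages differed by -0.62 ± 0.33, which did not pass (adjusted p = 0.167) except without P56 sham replicate 1 (0.049) or P56 MI replicate 2 (0.0342).

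In leukocytes Ptges rose after MI at P56, to 5.96, 5.90, 3.17 and 6.41 CPM, against 1.34, 1.14, 1.82 and 1.42 CPM after sham. The fold change was 2.97 (log2 1.57 ± 0.27 SE, limma adjusted p = 0.000107), and the groups did not overlap. In the same libraries the 10 fibroblast markers summed to 2354 to 7275 CPM after MI and 549 to 1690 CPM after sham (4 rose and 2 fell), 7 of 7 leukocyte markers rose and 12 of 12 cardiomyocyte markers fell. Ptges in P56 leukocytes was at 26.8% of the fibroblast mean after MI, beside a fibroblast marker median of 4.70% (range 2.24% to 9.99%), and at 4.96% after sham, beside 3.35% (2.43% to 5.19%). At P1 it measured 13.2, 8.64, 5.94 and 14.4 CPM after MI and 10.6, 5.82, 6.35 and 6.51 CPM after sham, with overlap (log2 0.46 ± 0.27, adjusted p = 0.172, but 0.0355 without MI replicate 3). The difference between the ages was 1.11 ± 0.38 on the log2 scale (adjusted p = 0.0241) and was lost without the 18S-rich libraries (0.0567), P1 sham replicate 1 (0.0552) or P1 MI replicate 3 (0.0501).

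The age contrast of Ptges ran in opposite directions in sham fibroblasts and leukocytes. In fibroblasts it was 3.52-fold higher at P56 (log2 1.82 ± 0.23 SE, limma adjusted p = 3.74e-06), and in leukocytes it was lower at P56 (log2 -1.99 ± 0.27 SE, adjusted p = 6.74e-06), both without overlap. The difference between the populations in this contrast was not tested in itself. Ptges was also lower at P56 in sham cardiomyocytes (log2 -1.51 ± 0.33 SE, adjusted p = 0.000453). Opposite age calls were not particular to Ptges. Hpgd was lower at P56 in cardiomyocytes (-2.49) and higher in leukocytes (2.20). Ptgs1 (-1.76 and 0.84) and Ptgis (-1.73 and 0.56) were lower in cardiomyocytes and higher in endothelial cells. Ptger4 was lower in fibroblasts (-1.54) and higher in endothelial cells (0.72). With age, 11 of 12 cardiomyocyte and 8 of 10 endothelial markers were higher at P56 in sham fibroblasts, and in sham leukocytes 11 of 12 cardiomyocyte markers were higher and 10 of 10 endothelial and 6 of 10 fibroblast markers lower, their part in the result not being tested. Fibroblasts were above leukocytes by 1.79 on the log2 scale at P56 MI and 3.89 at P56 sham, whereas at P1 sham the difference of 0.08 ± 0.28 (SE) did not pass (limma adjusted p = 0.816). In P56 cardiomyocytes Ptges measured 3.63, 0.967, 1.48 and 2.95 CPM after MI and 0.372, 0.755, 1.43 and 0.350 CPM after sham, on 118 and 28 reads and with overlap (log2 1.13 ± 0.33 SE, adjusted p = 0.033). That call was lost under median-of-ratios scaling (0.0516), without the 18S-rich libraries (0.1), and without replicate 1, 2 or 4 of P56 sham or replicate 1 or 4 of P56 MI (0.058 to 0.135). Endothelial means were 0.863, 0.687, 0.972 and 0.664 CPM at P56 MI, P56 sham, P1 MI and P1 sham, on 61 to 92 reads a group.

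Ptgis, the prostacyclin synthase, was the most abundant of the 7 transcripts per kilobase in P56 fibroblasts, at a mean of 120.7 CPM per kb after MI, with Ptgs2 at 48.7 and Ptger4 at 19.3 CPM per kb. After sham its mean was 91.0 CPM per kb, with Ptger4 at 13.05 and Ptgs2 at 4.58 CPM per kb. In P56 fibroblasts it measured 254, 235, 245 and 283 CPM after MI and 119, 208, 229 and 211 CPM after sham. The groups were just apart, and the fold change of 1.36 (log2 0.45 ± 0.18 SE) had a limma adjusted p of 0.0443. This call was lost without the filter (0.0519), under library total scaling (0.113), with the replicate block (0.0548), with edgeR (0.0601), and without replicate 1, 3 or 4 of P56 MI, replicate 1 of P56 sham (log2 0.23, adjusted p = 0.17), replicate 1 or 4 of P1 MI or replicate 2 or 3 of P1 sham. In P1 fibroblasts it measured 218, 203, 281 and 254 CPM after MI and 254, 243, 230.5 and 174 CPM after sham, and the log2 difference of 0.09 ± 0.18 did not pass (adjusted p = 0.896).

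In P56 leukocytes Ptgis measured 25.0, 43.4, 27.5 and 22.9 CPM after MI, against 6.77, 10.1, 13.0 and 9.39 CPM after sham, without overlap. The fold change was 2.91 (log2 1.54 ± 0.24 SE, limma adjusted p = 4.32e-05). Fibroblast markers, 10 genes led by Col3a1 and Col1a2, summed to 2354 to 7275 CPM in those MI leukocytes and 549 to 1690 CPM in the sham leukocytes. Set against fibroblasts of the same condition, Ptgis in leukocytes was at 11.7% of the fibroblast mean after MI and 5.12% after sham, beside marker medians of 4.70% (range 2.24% to 9.99%) and 3.35% (2.43% to 5.19%), and the part of fibroblast RNA in the result was not tested. At P1, Ptgis in leukocytes averaged 27.2 CPM after MI and 18.3 CPM after sham, which did not pass (log2 0.56 ± 0.24, adjusted p = 0.0628) but did without P1 sham replicate 3, P56 sham replicate 1, P1 MI replicate 3 or P56 MI replicate 2 (0.0238 to 0.0434). The difference between the ages, 0.98 ± 0.33 (adjusted p = 0.025), was lost under library total scaling (0.0563) and without P1 sham replicate 3 (0.0562), P1 MI replicate 3 (0.0555) or P56 MI replicate 2 (0.0502).

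Ptgis in P56 cardiomyocytes measured 27.5, 11.2, 11.9 and 29.1 CPM after MI and 4.22, 6.42, 17.6 and 4.77 CPM after sham, with overlap (log2 1.32 ± 0.40 SE, limma adjusted p = 0.0455). Fibroblast markers there summed to 1575 to 3648 CPM after MI and 367 to 1098 CPM after sham, and their part in the result was not tested. The call was lost with a pseudocount of 1 (0.0511), without the filter (0.0573), under median-of-ratios scaling (0.0718), with the replicate block (0.0672), with edgeR (0.074), without the 18S-rich libraries (0.147), and without replicate 1 or 4 of P56 MI, replicate 1, 2 or 4 of P56 sham or any P1 MI replicate (0.0545 to 0.16). In sham endothelial cells Ptgis averaged 21.4 CPM at P56 and 14.5 CPM at P1 (log2 0.56 ± 0.23 SE, adjusted p = 0.0428, overlap), a call lost under median-of-ratios (0.0606) and library total scaling (0.0575), with edgeR (0.0591) and without replicate 2, 3 or 4 of P56 sham, replicate 1 of P1 MI or replicate 1, 2 or 3 of P1 sham (0.0506 to 0.157). The endothelial MI change at P56, log2 0.56 ± 0.23, did not pass (adjusted p = 0.096) except without P56 MI replicate 2 (0.0476).

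Ptgds, the prostaglandin D2 synthase of the lipocalin family, was most abundant in P56 cardiomyocytes. It measured 1375, 1334, 473 and 1572 CPM in P56 MI cardiomyocytes and 1215, 937, 1995 and 888 CPM in P56 sham cardiomyocytes, but 44.8, 42.9, 50.9 and 40.8 CPM at P1 MI and 62.4, 60.6, 60.6 and 48.6 CPM at P1 sham. Between sham groups it was 20.5-fold higher at P56 (log2 4.36 ± 0.30 SE, limma adjusted p = 5.8e-10), and every P56 library lay above every P1 library. The other 6 genes were all lower at P56 than at P1 in sham cardiomyocytes. Markers of other cells were also lower there at P56. Fibroblast markers summed to 367 to 1098 CPM at P56 and 3187 to 7047 CPM at P1 (8 of 10 lower, 1 higher), leukocyte markers to 14.3 to 61.7 CPM and 84.3 to 192 CPM (6 of 7 lower), and 8 of 8 neutrophil markers tested, 7 of 7 epicardial markers and 16 of 16 immediate early genes were lower. The part of these cells in the lower levels of the 6 genes was not tested. No change with MI passed the test in cardiomyocytes, with log2 differences of -0.14 ± 0.30 at P56 (adjusted p = 0.827, 95% confidence interval -0.78 to 0.49, the sign changing under library total scaling) and -0.37 ± 0.30 at P1 (adjusted p = 0.713, -1.001 to 0.27). Replicate 3 of the P56 MI cardiomyocytes, which held the lowest Ptgds of its group, also stood apart from the other libraries of that population at P56 on the second principal component.

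Outside cardiomyocytes Ptgds fell after MI at P56 in the 3 sorted populations. In leukocytes it measured 15.3, 5.95, 4.89 and 3.42 CPM after MI, against 93.8, 46.0, 61.8 and 53.1 CPM after sham, without overlap (log2 -3.18 ± 0.33 SE, limma adjusted p = 1.28e-06). In fibroblasts it measured 0.836, 0.623, 0.651 and 0.643 CPM after MI, against 3.68, 2.78, 3.91 and 3.38 CPM after sham, also apart, on 69 and 268 reads (log2 -1.72 ± 0.21 SE, adjusted p = 5.46e-06). Among fibroblast libraries only those of P56 sham held at least 1 CPM of Ptgds. It thus passed the filter only through the group where it was highest, and it left the fit without any 1 of those libraries. The fibroblast calls of Ptgds rest on that group. In endothelial cells it measured 7.14, 6.83, 4.31 and 3.58 CPM after MI and 13.4, 11.3, 21.4 and 6.80 CPM after sham, with overlap (log2 -1.14 ± 0.29 SE, adjusted p = 0.0101). The cardiomyocyte markers moved with it: they summed to 5151 to 18824 CPM after MI and 74717 to 205385 CPM after sham in leukocytes, 242 to 1042 CPM and 2809 to 5941 CPM in fibroblasts, and 3839 to 8532 CPM and 9104 to 20780 CPM in endothelial cells.

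Ptgds outside cardiomyocytes was set against those markers as a share of the cardiomyocyte mean. In leukocytes it was at 0.622% at P56 MI, beside a marker median of 1.74% (range 0.795% to 24.2%), and at 5.06% at P56 sham, beside 16.4% (6.92% to 307%). At P1 it was at 6.97% after MI, beside 6.79% (4.79% to 24.3%), and at 15.1% after sham, beside 16.7% (11.9% to 83.5%). The share of Ptgds was thus at or below that of the median marker in every leukocyte group but P1 MI, where it lay within the markers' range. In fibroblasts the shares were 0.0579% at P56 MI and 0.273% at P56 sham, beside marker medians of 0.111% and 0.657%. The part of cardiomyocyte RNA in the Ptgds differences of the sorted populations was not tested beyond these values.

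**Figure D4:**
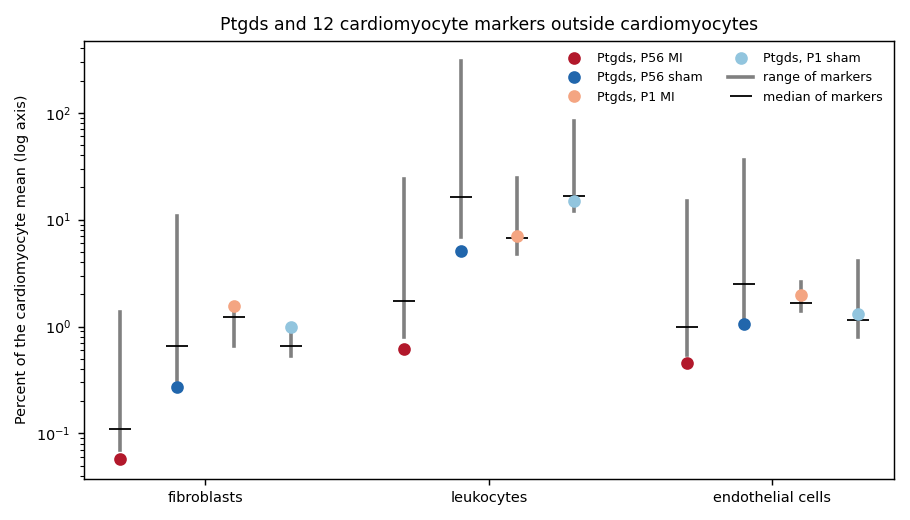
Ptgds in the 3 sorted populations as a percentage of its cardiomyocyte mean in the same condition (log axis, points), beside the median and range of 12 cardiomyocyte markers (black bar and grey line). At P56 the Ptgds point lies below the marker median in each population, as in sham leukocytes with 5.06% beside 16.4%.

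At P1 Ptgds in leukocytes measured 3.61, 2.45, 4.05 and 2.40 CPM after MI and 7.82, 9.75, 9.81 and 7.63 CPM after sham, without overlap (log2 -1.37 ± 0.33 SE, limma adjusted p = 0.00292). Cardiomyocyte markers there summed to 5502 to 15208 CPM after MI and 18311 to 24058 CPM after sham, and their part in the result was not tested. The MI change was more negative at P56 than at P1 by -1.81 ± 0.46 on the log2 scale in leukocytes (adjusted p = 0.005) and by -1.89 ± 0.29 in fibroblasts (adjusted p = 0.000204). The fibroblast difference rests on the P56 sham group, through which alone Ptgds passed the filter there. In endothelial cells this difference, -1.32 ± 0.40, did not pass (adjusted p = 0.0676) except without P1 sham replicate 4 (0.0315), P56 sham replicate 4 (0.0233) or P56 MI replicate 2 (0.0377).

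Hpgd, which begins prostaglandin breakdown, was highest in leukocytes and changed there in opposite directions at the 2 ages. At P56 it measured 44.1, 105, 50.9 and 33.6 CPM after MI, against 84.2, 199, 180.2 and 162 CPM after sham, with overlap. It fell after MI at P56 (log2 -1.48 ± 0.28 SE, limma adjusted p = 0.000332), a ratio of 2.78 of sham over MI. At P1 it measured 73.7, 73.3, 88.4 and 75.3 CPM after MI, against 32.3, 35.5, 30.8 and 29.3 CPM after sham, apart, and it rose 2.41-fold (log2 1.27 ± 0.28 SE, adjusted p = 0.00185). The difference between those changes was -2.74 ± 0.40 on the log2 scale (limma adjusted p = 7.7e-05) and ran from -3.07 to -2.53 with libraries left out.

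Between sham leukocytes Hpgd was higher at P56, with 156 ± 50.3 CPM at P56 and 32.0 ± 2.63 CPM at P1 (SD, n = 4 each; log2 2.20 ± 0.28 SE, limma adjusted p = 4.7e-06). The macrophage markers, 9 genes led by Lyz2 and Mrc1, summed to 9167 to 14078 CPM at P56 MI and 6918 to 13223 CPM at P56 sham, and to 9615 to 11655 CPM at P1 MI and 3352 to 4117 CPM at P1 sham. Of these 9 markers, 9 rose after MI at P1, while 2 rose and 4 fell at P56, and their part in the Hpgd results was not tested. The lowest P56 sham value of Hpgd, 84.2 CPM in replicate 1, came from the library with the highest cardiomyocyte marker sum.

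Elsewhere Hpgd was low. Endothelial cells held 4.99, 6.08, 7.43 and 10.7 CPM at P56 MI and 4.45, 5.69, 4.38 and 3.68 CPM at P56 sham (log2 0.59 ± 0.19 SE, limma adjusted p = 0.0345, overlap). Leukocyte markers in the same libraries summed to 52.7 to 136 CPM at P56 MI and 15.4 to 24.7 CPM at P56 sham. Hpgd there was at 12.5% of the leukocyte mean after MI, beside a leukocyte marker median of 1.83% (range 1.68% to 2.54%), and at 2.91% after sham, beside 0.767% (0.560% to 1.55%). That call was lost with the replicate block (0.0563) and without replicate 3 or 4 of P56 MI or replicate 1, 3 or 4 of P56 sham (0.0632 to 0.118). In sham endothelial cells Hpgd was 2.13-fold higher at P56 than at P1 (log2 1.09 ± 0.19 SE, adjusted p = 8.48e-05), at means of 4.55 and 1.85 CPM without overlap. In fibroblasts it measured 9.07, 6.52, 10.6 and 4.80 CPM at P56 MI and 15.8, 5.48, 2.82 and 3.68 CPM at P56 sham, where sham replicate 1 stood above the rest. The fibroblast MI change at P56, log2 0.39 ± 0.39, did not pass (adjusted p = 0.428) except without that library (0.86, 0.0281), and the age contrast, -0.57 ± 0.39, did not pass (0.211) except without it (-1.04, 0.00653). At P1 fibroblasts averaged 16.7 CPM after MI and 8.80 CPM after sham, which did not pass (log2 0.88 ± 0.39, adjusted p = 0.303). Cardiomyocytes averaged 2.47 CPM at P56 MI, 1.82 CPM at P56 sham, 15.8 CPM at P1 MI and 12.1 CPM at P1 sham, and the sham groups differed by -2.49 ± 0.32 on the log2 scale (adjusted p = 1.71e-06), P56 being lower.

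Ptger4, the EP4 receptor, was highest in fibroblasts, with leukocytes next at P56 MI and at P1. Fibroblasts measured 71.2, 47.9, 72.6 and 60.9 CPM at P56 MI and 26.9, 60.9, 41.1 and 41.4 CPM at P56 sham, with overlap, and the 1.52-fold rise (log2 0.60 ± 0.19 SE) passed the test (limma adjusted p = 0.0133) but not without sham replicate 1 (log2 0.40, adjusted p = 0.0504). At P1 they measured 98.9, 94.1, 117 and 104 CPM after MI and 112, 127, 139 and 106 CPM after sham, and the log2 difference of -0.22 ± 0.19 did not pass (adjusted p = 0.673). The changes differed between the ages by 0.82 ± 0.26 (adjusted p = 0.0258), which was lost under library total scaling (0.0792), without the 18S-rich libraries (0.0861) and without P1 sham replicate 3 (0.0553) or P56 MI replicate 1 (0.055) or 3 (0.0541). Sham fibroblasts held less Ptger4 at P56 than at P1 (log2 -1.54 ± 0.19 SE, adjusted p = 1.72e-06), without overlap.

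In leukocytes Ptger4 measured 36.1, 45.2, 37.0 and 44.3 CPM at P56 MI, against 14.1, 25.1, 32.7 and 27.8 CPM at P56 sham, apart (fold change 1.68, log2 0.75 ± 0.20 SE, limma adjusted p = 0.00423). At P1 it measured 49.0, 66.4, 69.6 and 65.2 CPM after MI and 53.6, 41.8, 44.0 and 56.7 CPM after sham, with overlap (log2 0.35 ± 0.20, adjusted p = 0.17, but 0.0407 without P56 sham replicate 1). Ptger4 in P56 leukocytes was at 64.4% of the fibroblast mean after MI and 58.5% after sham, above the 9.99% and 5.19% of the highest fibroblast marker. In those P56 leukocytes the leukocyte markers also rose after MI and the cardiomyocyte markers fell, as given above. Their part in the Ptger4 result was not tested. Endothelial cells held 25.4, 29.2, 26.2 and 23.3 CPM at P56 MI and 41.7, 15.8, 28.5 and 24.4 CPM at P56 sham, a log2 difference of -0.01 ± 0.21 that did not pass (adjusted p = 0.985). At P1 they averaged 24.2 CPM after MI and 15.8 CPM after sham, apart, which did not pass (log2 0.61 ± 0.21, adjusted p = 0.195), and the difference between the ages passed only without P56 sham replicate 2 (0.0461 against 0.247 with all libraries). Cardiomyocytes averaged 5.22 CPM at P56 MI, 4.12 CPM at P56 sham, 11.6 CPM at P1 MI and 10.8 CPM at P1 sham, and the age contrast of the sham groups was -1.26 ± 0.27 on the log2 scale (adjusted p = 0.000356).

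**Figure D5:**
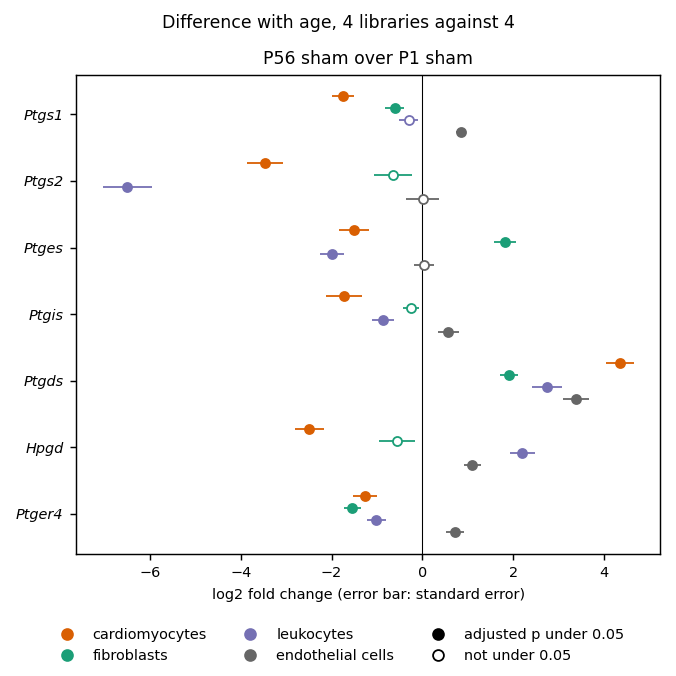
Log2 difference of the 7 genes between P56 sham and P1 sham libraries in the 4 populations, with standard errors, 4 libraries against 4 and filled points for an adjusted p under 0.05. Ptgds is to the right of 0 in all 4 populations, Ptges is to the right in fibroblasts at 1.82 and to the left in leukocytes at -1.99, and Ptgs2 in leukocytes is farthest left at -6.50.

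Per kilobase the leading transcript of the 7 differed by population. In P56 leukocytes it was Hpgd, at a mean of 34.0 CPM per kb after MI, beside Ptgs2 at 25.97 and Ptgs1 at 21.9 CPM per kb, and at 90.9 CPM per kb after sham, beside Ptgds at 76.7 and Ptgs1 at 12.5 CPM per kb. In P1 leukocytes it was Hpgd after MI (45.2 CPM per kb) and Ptgs2 after sham (30.5 CPM per kb). In cardiomyocytes Ptgds led, at 1432 CPM per kb at P56 MI, 1517 at P56 sham, 54.0 at P1 MI and 69.9 at P1 sham. In endothelial cells Ptgs1 led at P56, with 43.2 CPM per kb after MI and 37.1 CPM per kb after sham. It also led there at P1, with 21.7 CPM per kb after MI and 20.7 CPM per kb after sham. In fibroblasts Ptgis led at P1 as at P56, with 113.5 CPM per kb at P1 MI and 106.9 at P1 sham.

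The rest of the pathway was read from a list of 25 other genes for phospholipases, synthases, prostanoid receptors, transporters and reductases, of which 23 were in the table. After MI at P56, 9 rose and 9 fell of 22 tested in leukocytes (59.5% of all genes called) and 6 rose and 10 fell of 21 in fibroblasts (50%). In cardiomyocytes 4 rose of 21 (9.69% of all genes called, 8.66% called higher), and in endothelial cells 4 rose and 2 fell of 18 (20.4%). Their median log2 fold change was -0.03 in leukocytes, -0.26 in fibroblasts, 0.12 in cardiomyocytes and 0.07 in endothelial cells. After MI at P1, 11 rose and 2 fell of 22 in leukocytes (45.2% of all genes called) and 2 rose of 21 in fibroblasts (2.37% called, 1.99% called higher). There limma called none of 21 in cardiomyocytes (0.343% of all genes called) or 18 in endothelial cells (0.216%). The MI change differed between the ages for 15 of 22 in leukocytes (3 more positive at P56, 12 more negative) and 10 of 21 in fibroblasts (3 and 7). Of all genes 45.2% and 31.7% were called in those 2 contrasts. Markers of other cells, and in leukocytes their own markers, moved with MI or age in several populations, as given above. The part of these markers in the results of the pathway genes was not tested.

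Pla2g4a, which supplies arachidonic acid, rose after MI at P56 in all 4 populations, by 1.24 ± 0.19 on the log2 scale in leukocytes (limma adjusted p = 3.48e-05), 1.37 ± 0.36 in cardiomyocytes (0.0198), 0.60 ± 0.15 in fibroblasts (0.00404) and 0.70 ± 0.22 in endothelial cells (0.0351). In leukocytes it measured 90.1, 55.8, 67.1 and 82.3 CPM after MI, against 20.6, 41.7, 32.0 and 31.0 CPM after sham. Ptger2, which encodes the EP2 receptor for prostaglandin E2, rose most among the receptors, to 18.04, 12.97, 9.78 and 18.06 CPM in P56 MI leukocytes, against 1.40, 2.40, 1.91 and 1.72 CPM in P56 sham leukocytes (log2 2.66 ± 0.21, adjusted p = 1e-07). It also rose in P1 leukocytes (log2 1.63 ± 0.21, adjusted p = 1.29e-05), the change being larger at P56 by 1.03 ± 0.29 (0.00963), and it fell in P56 fibroblasts (-0.71 ± 0.22, 0.0128).

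Receptors for other prostanoids fell in P56 fibroblasts after MI. Ptgir, the prostacyclin receptor, measured 31.4, 39.1, 23.8 and 30.1 CPM after MI, against 54.1, 76.9, 70.0 and 86.1 CPM after sham, without overlap (log2 -1.20 ± 0.18, limma adjusted p = 5.76e-05). Ptgfr, the prostaglandin F receptor, measured 15.9, 31.3, 24.9 and 15.7 CPM after MI and 29.5, 49.9, 84.3 and 46.3 CPM after sham (log2 -1.20 ± 0.28, adjusted p = 0.00181). Ptger3, the EP3 receptor, rose in the same fibroblasts (0.73 ± 0.18, 0.00258) and in P1 fibroblasts (1.00 ± 0.18, 0.00572). In P56 leukocytes Ptgir (0.76 ± 0.22, 0.008) and Ptger1, the EP1 receptor (0.30 ± 0.11, 0.0237), rose, and Ptgfr (-1.94 ± 0.31, 7e-05) and Tbxa2r, the thromboxane receptor (-1.07 ± 0.25, 0.00168), fell. In P1 leukocytes Ptger3 (1.29 ± 0.24, 0.00038) and Ptger1 (0.67 ± 0.11, 0.000108) rose and Tbxa2r fell (-0.81 ± 0.25, 0.0156). In P56 endothelial cells Ptgir fell (-0.78 ± 0.14, 0.00126).

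Among the other synthases, Tbxas1, the thromboxane synthase, rose after MI in leukocytes at P56 (log2 0.64 ± 0.20, limma adjusted p = 0.0128) and at P1 (1.76 ± 0.20, 5.37e-06) and in P56 cardiomyocytes (1.93 ± 0.28, 0.000198), and fell in P56 fibroblasts (-1.02 ± 0.24, 0.00203). In leukocytes its MI change was smaller at P56 by 1.12 on the log2 scale (difference -1.12 ± 0.29, 0.00526). The summed leukocyte markers were also higher after MI in the unsorted P56 cardiomyocytes, as given above for Ptgs2. Their part in the Tbxas1 rise there was not tested. Hpgds, the other prostaglandin D2 synthase, rose in P1 leukocytes (0.77 ± 0.25, 0.0182). Ptges3 rose at P56 in leukocytes (0.67 ± 0.10, 3.64e-05) and fibroblasts (0.50 ± 0.11, 0.00141), and Ptges2 fell in P56 leukocytes (-0.91 ± 0.17, 0.0003); both encode further prostaglandin E2 synthases.

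With age, Ptgfr stood out in sham fibroblasts, being higher at P56 by 5.04 ± 0.28 on the log2 scale (limma adjusted p = 1.94e-10), with 29.5 to 84.3 CPM at P56 and 0.833 to 1.32 CPM at P1. It was also higher at P56 in sham leukocytes (3.47 ± 0.31, 9.22e-08), endothelial cells (1.72 ± 0.22, 3.92e-06) and cardiomyocytes (1.35 ± 0.27, 0.000211). Ptgir was higher at P56 in sham fibroblasts (1.54 ± 0.18, 1.33e-06) and endothelial cells (0.73 ± 0.14, 0.000319) and lower in cardiomyocytes (-0.83 ± 0.29, 0.0175). Pla2g4a was lower at P56 in sham cardiomyocytes (-2.32 ± 0.36, 1.5e-05) and higher in fibroblasts (0.94 ± 0.15, 4.66e-05) and leukocytes (0.64 ± 0.19, 0.00612).

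The genes most like each of the 7 were found by Pearson correlation of log2(CPM + 0.5) over the 16 group means, among 12660 genes, as a description with no test, since the groups share their populations. Ptgds was closest to Cox7a1 (r = 0.997), Hfe2 (0.996) and Plin5 (0.995), and Ptgis to Tmem45a (0.977), Vkorc1 (0.976) and Pde1a (0.975). Ptgs1 was closest to Rab27a (0.973), Cd38 (0.966) and Il2rg (0.950), and Ptger4 to Ift140 (0.949), Cdk14 (0.939) and Epb4.1l2 (0.936). For Hpgd they were Itga4 (0.944), Tlr5 (0.935) and Fndc7 (0.931), for Ptges Gspt2 (0.925), Ift57 (0.915) and Dusp14 (0.912), and for Ptgs2 Mapk6 (0.915), Anxa1 (0.914) and Sgms2 (0.904). Among the 7 themselves, Ptges and Ptgis had an r of 0.77, Ptgs2 and Ptges 0.73, and Ptgs2 and Ptgs1 0.10, while Ptgds and Ptger4 ran opposite at -0.83.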

How the data were processed

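RNA was depleted of ribosomal RNA and sequenced from 64 libraries, per the labels' protocols. The authors deposited a table of normalised signal values that they call CPM, with gene lengths. Per the submitters' processing notes, Trimmomatic, STAR, HTSeq and edgeR were used, with mm10, GRCm38 and GRCh38 named as builds; versions are not given in the sources used here. The deposited CPM columns sum to 776590 to 2627530, so they are scaled to effective library sizes. In each library 100% of values were whole multiples of a step, within 0.01 read, and those steps gave back the read counts.

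Genes with at least 1 CPM in at least 4 libraries were fitted with limma 3.58.1 (R 4.3.3, trend) on log2(CPM + 0.5), in 1 fit of 16 libraries per population with 4 group means. The 4 contrasts were MI against sham at P56, MI against sham at P1, the difference of those changes, and P56 sham against P1 sham. Populations were compared in 1 fit of 64 libraries with 16 group means. P-values were adjusted over all genes by Benjamini-Hochberg within a contrast, with calls at an adjusted p under 0.05. The count test, edgeR 4.0.16 (quasi-likelihood) on the recovered reads, was an alternative, as were other pseudocounts, filters and scalings, a replicate block, and leaving out libraries. Of 96 replicate pairs none were identical. The same number across populations was checked as a pairing: at P56 sham same-numbered libraries deviated together in 24 of 24 pairs (r = 0.12 to 0.42), at P56 MI r was 0.08 to 0.45 (22 of 24 over 0.1), and at P1 23 of 48 were over 0.1. A block for condition and number was therefore added, after seeing the data, to the comparison of populations. The fits were tested on simulated data. Promoter sequences and starts are from RefSeq, GRCm38.p6.

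The 7 genes, the marker and pathway lists and the tests were chosen with earlier results of these data known. Named pathway genes are the prostanoid receptors, the remaining terminal synthases and Pla2g4a, where they passed the test. Similar genes are the 3 with the highest correlation over group means. Chromatin data were not used here.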

Additional observations from a re-analysis of the deposited data

Results flagged for a closer look

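In 8 of the 112 groups of 4 libraries, 1 library lay apart from the other 3 by Dixon's test at the 95% level, where chance alone gives about 1 in 20. Ptgs1 in P56 sham leukocytes had its low library at 23.7 CPM. Ptges in P56 MI leukocytes had its low library at 3.17 CPM, and in P1 sham leukocytes its high library was at 10.6 CPM. Ptgis in P56 sham cardiomyocytes had its high library at 17.6 CPM. Ptgds had its low library at 48.6 CPM in P1 sham cardiomyocytes and its high libraries at 0.836 CPM in P56 MI fibroblasts and 1.33 CPM in P1 sham endothelial cells. Hpgd in P1 MI leukocytes had its high library at 88.4 CPM.

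The change after infarction differed between the ages for 8 gene and population pairs, by the limma test of the difference itself, given as the log2 change at P56 minus that at P1. In leukocytes the difference was 5.85 for Ptgs2, 1.11 for Ptges, 0.98 for Ptgis, -1.81 for Ptgds and -2.74 for Hpgd. In fibroblasts it was 2.50 for Ptgs2, 0.82 for Ptger4 and -1.89 for Ptgds. Ptgds passed the filter in fibroblasts only through the P56 sham group. Age, sex, pooling and digestion cannot be told apart in these differences.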

How the results depend on the processing

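No call of the 7 genes reversed under any alternative run, though some differences that had not passed the test changed sign. In cardiomyocytes the 1 gene called after MI at P1 became 0 with a pseudocount of 0.1, a filter of 5 CPM, the replicate block, or without the 7 libraries over 5% 18S, and the 3 called after MI at P56 became 1 under median-of-ratios scaling or without the 18S-rich libraries; no endothelial library was 18S-rich, so that setting gave no value there. With each library left out in turn, the number of genes called was 0 to 1 (main 1) in P1 and 1 to 3 (main 3) in P56 MI cardiomyocytes, 4 to 6 (5) in P56 MI fibroblasts, 3 to 5 (3) in P1 MI leukocytes and 1 to 4 (3) in P56 MI endothelial cells. The age contrast gave 2 to 4 (4) in fibroblasts and 4 to 5 (5) in endothelial cells, and the difference of MI changes 2 to 4 (3) in fibroblasts, 3 to 5 (5) in leukocytes and 0 to 1 (0) in endothelial cells. Genes with a population above the other 3 numbered 6 to 7 (7) at P56 MI, 6 to 7 (7) at P56 sham, 4 to 6 (6) at P1 MI and 5 to 6 (5) at P1 sham. Counts were unchanged by leaving out a library at 7 for cardiomyocyte age, 0 for the cardiomyocyte difference of MI changes, 1 for P1 MI fibroblasts, 6 for leukocyte age, 7 for P56 MI leukocytes and 0 for P1 MI endothelial cells. Over 1776 single tests with a library left out, 55 lost and 17 gained a call. The cause of these changes was not tested.

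Between the conditions of 1 population, replicate numbers did not pair the samples: deviations of same-numbered libraries correlated between -0.43 and 0.36 in cardiomyocytes, -0.31 and 0.16 in fibroblasts, -0.19 and 0.36 in leukocytes and -0.34 and 0.21 in endothelial cells. Over all genes the replicate block moved the calls after MI at P1 to 27 from 53 in cardiomyocytes and to 1 from 34 in endothelial cells, and the cardiomyocyte difference of MI changes to 170 from 270; for the 7 genes 4 calls were lost and 1 gained. Across populations the same-numbered library was the best match in 24 of 24 cases at P56 sham and in 24 of 24 at P56 MI. At P1 it was the best match in 16 of 24 after MI and 12 of 24 after sham (r = -0.14 to 0.45). The numbers therefore paired the P1 libraries only in part. The replicate block within the condition left the genes with a population above the other 3 at 7, 7, 6 and 5 at P56 MI, P56 sham, P1 MI and P1 sham. With it and each library left out these were 6 to 7, 6 to 7, 5 to 6 and 5 to 6, and Ptgs2 at P1 MI, 1.10 ± 0.31 (SE) higher in leukocytes (limma adjusted p = 0.00181), passed in 70 of 70 further settings. Most of those settings left out 1 library of another condition, which cannot move this difference. The 53 cardiomyocyte calls also became 16 and 95 with pseudocounts of 0.1 and 1, 168 without a filter, 15 with 5 CPM, 114 with library totals, 19 with edgeR and 129 without 18S-rich libraries. The 34 endothelial calls became 22 and 62 with those pseudocounts and 5 with library totals, and the 372 of P1 MI fibroblasts 194 with 5 CPM and 644 without 18S-rich libraries. The difference of MI changes became 84 with library totals and 466 with edgeR in cardiomyocytes, 2805 in place of 4989 in fibroblasts and 4839 in place of 7347 in leukocytes with library totals.

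With library totals, 1533 genes were higher and 10317 lower in the cardiomyocyte age contrast (main 5149 and 5728), 5818 and 3294 in the fibroblast age contrast (5481 and 5057), 5658 and 2769 after MI in P56 leukocytes (4985 and 4680), 114 and 0 in P1 MI cardiomyocytes (44 and 9), and 3 and 2 in P1 MI endothelial cells (14 and 20). Median-of-ratios scaling gave 1030 and 317 in P56 MI cardiomyocytes (1339 and 159). The all-gene median also moved by 0.16 in fibroblast age, -0.14 in leukocyte age, 0.22 in P56 MI cardiomyocytes, 0.11 in P1 MI leukocytes, 0.10 in P1 MI cardiomyocytes, and 0.13 in leukocytes and 0.11 in cardiomyocytes for the difference of MI changes. Depth limits Ptgs2 in P56 sham cardiomyocytes most, with 15 reads in 4 libraries.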
